A study of Ovis aries with 2 samples.

Results

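The cells described here were the 84 cells, of 14037 in Hu sheep lambskin, that carried fewer than 1000 genes with a UMI (unique molecular identifier, 1 counted transcript) and at least 2 of 6 wool genes. The 6 genes were KRT2.11, BIIIB4, LOC101106046, LOC100526784, LOC100526782 and LOC106991399. The straight wool library held 43 of them among 6452 cells and the curly wool library 41 among 7585. Each library was 1 pool of skin from 3 lambs aged 3 days, in which a suspension of isolated hair follicles had been mixed with a suspension of whole skin. Animals of both wool types belonged to the Hu breed and were selected by wool length and curvature. No treatment that separates the groups is named, and no genotype is given for either. Because each wool type was 1 pooled library, no difference between them could be tested, and the intervals given below (95%) cover counting error only.

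Wool is built by the cortex and cuticle of the hair shaft. Cells leaving the hair matrix first make type I and type II hair keratins, which pair into intermediate filaments, and then make keratin-associated proteins, small proteins rich in cysteine or in glycine and tyrosine that embed and cross-link the filaments. As the fibre hardens the cells lose their nuclei and stop making most other transcripts, so that a late cortex cell is known for few kinds of RNA, much of it from these gene families.

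KRT2.11 is a type II wool keratin and BIIIB4 a high-sulfur keratin-associated protein of the BIIIB family. The 4 other genes have no descriptive symbol, and they were placed by their neighbours in the RefSeq gene order of another sheep assembly. LOC100526784 lies beside KRT2.11 among type II keratins, and LOC100526782 lies beside V15, which RefSeq lists as KRT31, among type I wool keratins. LOC106991399 stands with BIIIB4 in the run of keratin-associated protein genes, and LOC101106046 with KRTAP6-1 in another such run. With their neighbours and the named family members, 59 genes of these runs were present in the table and are called the wool loci below, of which 53 were not used to choose the cells. Members of these families are close copies of each other, so the split of counts between neighbouring loci is uncertain.

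The name "wool keratin-rich" held for the smaller portion of the cells. Of the 84 cells, 61 carried only 2 or 3 of the 6 genes and 23 carried 4 to 6, a division chosen after the values were seen. In straight cells, 26 had 2 of the genes, 4 had 3, 3 had 4, 3 had 5 and 7 had all 6. In curly cells, 26 had 2, 5 had 3, 4 had 4, 4 had 5 and 2 had all 6. Among the cells with exactly 2 genes, 24 of 26 straight and 17 of 26 curly cells had 1 UMI of each and no more. The 4 straight and 5 curly cells with 3 genes, and the 3 straight and 4 curly cells with 4, lie beside the division.

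The cells made up 0.666% of the straight library (0.483 to 0.897, exact binomial) and 0.541% of the curly library (0.388 to 0.733), intervals that overlap. Among cells under 1000 genes they were 3.89% in straight (43 of 1106) and 2.46% in curly (41 of 1665). Cells with 4 to 6 of the genes were 1.18% of low-gene cells in straight (0.627 to 2.00) and 0.601% in curly (0.288 to 1.10). Wool transcripts were not particular to low-gene cells. Of all straight cells with 4 to 6 of the genes, 21.3% (13 of 61, interval 11.9 to 33.7) fell under the limit of 1000 genes. In curly, 22.7% did (10 of 44, interval 11.5 to 37.8). Low-gene cells made up 17.14% of all straight cells and 21.95% of all curly cells, which lie within those intervals. Cells with 4 to 6 of the genes were thus under the limit about as often as cells in general. The mixing of follicle and skin suspensions and the authors' cell filter can set these shares, and their part was not tested.

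Free RNA in the droplets gives single UMIs of abundant genes to cells that do not make them. As a yardstick, 6 of 161 endothelial-like straight cells (3.73%) carried at least 2 of the 6 genes, where low-gene cells stood at 3.89%. None of 132 endothelial-like curly cells did, which allows a share of up to 2.76% (exact binomial), and the 2.46% of low-gene cells lies within that limit. Endothelial-like cells were those with at least 2 of PECAM1, CDH5, KDR and CLDN5. The chosen cells were left out of this set and of the papilla-like set below. No low-gene cell with 2 or more of the 6 genes could therefore count there, which can only lower these shares. Endothelial-like cells were deeper, with medians of 6499 UMIs in straight and 4956.5 in curly against 804 and 920 in the chosen cells. Without allowance for depth, the straight share of low-gene cells with 2 or more of the genes was thus close to the endothelial-like share. Thinned to 500 UMIs a cell, 0% of endothelial-like cells in either library kept 2 or more of the genes. Of the chosen cells, 60.5% in straight and 63.4% in curly did, a share in part set by the choice. No endothelial-like cell in either library carried 4 or more, which allows up to 2.27% in straight and 2.76% in curly (exact binomial). The low-gene shares with 4 or more, 1.18% and 0.601%, lie within those limits. Among papilla-like cells, which carry dermal papilla markers, 3.32% in straight (47 of 1417) and 1.26% in curly (9 of 717) carried at least 2 of the genes, and 8 and 0 carried 4 or more.

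The share of a cell's UMIs that came from the wool loci showed the same division, and 53 of the 59 loci had no role in the choice. In the straight library the 13 cells with 4 to 6 genes had 1.21% to 58.1% of their UMIs at the wool loci, with a median of 16.4%. In the curly library the 10 such cells ranged from 3.78% to 63.0%, with a median of 12.9%. Cells with 2 or 3 genes had medians of 0.591% in straight and 0.701% in curly, and highest values of 6.67% and 5.78%. Without the 6 genes, the other 53 loci alone held medians of 10.9% and 9.37% in cells with 4 to 6 genes and of 0.197% and 0.492% in cells with 2 or 3. In low-gene cells with none of the 6 genes the wool loci held medians of 0.111% in straight and 0.144% in curly. Their share of the summed UMIs there was 0.164% in straight and 0.243% in curly. For the other 53 loci in cells with 2 or 3 genes, the summed shares were 0.550% and 1.31%.

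**Figure D1:**
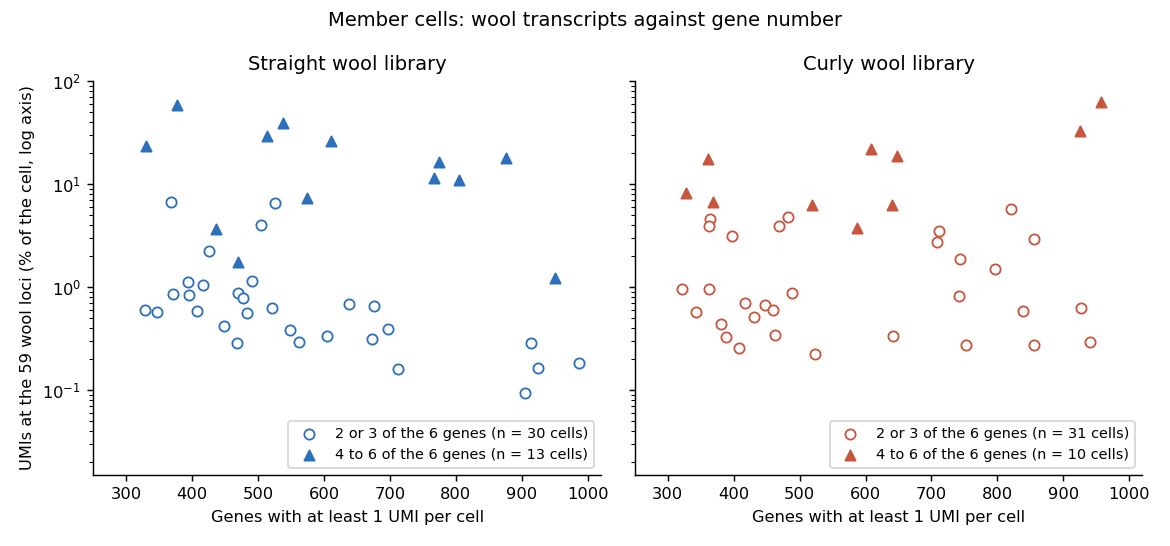
Each point is 1 of the 84 cells, with the number of genes with a UMI on the horizontal axis and the percentage of the cell's UMIs at the 59 wool loci on a log vertical axis, for the straight (left) and curly (right) library. Triangles mark the 23 cells with 4 to 6 of the 6 genes, which reach 58.1% in straight and 63.0% in curly, and open circles the 61 cells with 2 or 3, none of which is above 6.67%.

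The number of other wool loci seen in each cell gave the same picture. Straight cells with 4 to 6 genes carried 4 to 26 of the 53 other loci, with a median of 18, and curly ones 8 to 25, with a median of 10.5. Cells with 2 or 3 genes carried medians of 2 and 3, with at most 8 in straight and 12 in curly. At least 5 of the 53 loci were present in 12 of 13 and 10 of 10 cells with 4 to 6 genes, in 5 of 30 and 12 of 31 cells with 2 or 3, and in 0.341% and 2.04% of low-gene cells with none. Endothelial-like cells reached 5 loci in 1.24% of straight and 3.03% of curly cells.

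Total depth differed little between the cells and their low-gene neighbours. The cells had 500 to 3124 UMIs in straight and 518 to 6374 in curly, and medians of 521 and 519 genes. Low-gene cells with none of the 6 genes had medians of 928 UMIs and 582 genes in straight and 969.5 UMIs and 561 genes in curly. Cells with 4 to 6 genes had the higher medians within the chosen cells, 1368 UMIs in straight and 1141 in curly, against 769 and 910 in those with 2 or 3. The cells with the highest 6% of doublet scores included 5 of the 43 straight and 3 of the 41 curly cells, of which 2 and 0 had 4 to 6 genes.

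At equal depth the wool-rich cells held fewer kinds of RNA than their low-gene neighbours. Thinned to 500 UMIs, which left out no cell, cells with 4 to 6 genes had medians of 282 genes in straight and 293.5 in curly, those with 2 or 3 had 354 and 313, and low-gene cells with none had 348 and 332. Gene-rich cells with 4 to 6 of the 6 genes, meaning at least 1000 genes, had medians of 304.5 and 285 at that depth. These lay above the wool-rich cells in straight and below them in curly, so a low gene number at equal depth was not particular to them. The low gene number of the cells with 2 or 3 genes thus went with few UMIs, and at 500 UMIs their median lay above that of their low-gene neighbours in straight and below it in curly.

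The values beside the limit of 1000 genes differed between the libraries. In straight, the 5 cells within 100 genes below the limit had a median of 0.184% of UMIs at the wool loci and the 5 cells with 2 or more of the 6 genes just outside, within 100 genes above it, had 0.316%. In curly, the 4 cells inside had 16.7%, since the 2 chosen curly cells with the highest wool percentages are among them, and the 7 cells outside had 0.416%.

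The richest cells of the libraries differed in depth. The richest straight cell had 1107 UMIs in 377 genes, with 296 UMIs of the 6 genes and 58.1% of its UMIs at the wool loci. The richest curly cell had 6374 UMIs in 957 genes, with 1903 UMIs of the 6 genes and 63.0% at the wool loci. That curly cell held 67.4% of all UMIs of the 6 genes in curly cells and 61.7% of their wool UMIs, against 20.6% and 16.9% for the richest straight cell. Curly levels of single genes that it moved by over 1.5 times are therefore given also without it. Its 10 most abundant genes were all wool loci, led by LOC101106046 (611 UMIs), LOC101103772 (505) and LOC100526780 (416), which RefSeq lists as KRT83, a type II hair keratin.

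Among type II keratins, KRT2.11 ranged from 0 to 48 UMIs (median 7) in the 13 straight cells with 4 to 6 genes and from 1 to 329 (median 4) in the 10 curly cells. It was present in 11 and 10 of them, and its summed level was 7577 CPM (the gene's UMIs over all UMIs of the summed cells, scaled to a common total) in straight and 25289 in curly, or 10493 in curly without the richest cell. LOC100526784 ranged from 0 to 56 UMIs (median 8) and from 0 to 351 (median 7.5), and stood at 10743 and 32233 CPM, 19399 in curly without the richest cell. These genes served to choose the cells, so that their levels are a description.

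LOC100526780, which the rule did not use, followed the same cells. It ranged from 0 to 126 UMIs (median 11) in straight and from 0 to 416 (median 10.5) in curly, and was present in 11 of 13 and 9 of 10 cells. Its level was 18995 CPM (17099 to 21044) among straight cells and 33531 CPM (30888 to 36339) among curly ones, 15695 without the richest cell. Cells with 2 or 3 genes stood at 219 and 1031 CPM, low-gene cells with none at 119 and 82.5 CPM, and endothelial-like cells at 21.6 and 12.4 CPM.

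Among type I keratins the rule did not use, K33 had the highest level, with 0 to 63 UMIs (median 4) in straight and 0 to 133 (median 1.5) in curly. K33 stood at 8252 CPM (7019 to 9639) and 11346 CPM (9832 to 13028) in cells with 4 to 6 genes, 5996 in curly without the richest cell, and at 19.1 and 21.7 CPM in low-gene cells with none. V15 reached 5709 and 4968 CPM, 3086 in curly without the richest cell, and LOC100526781, next to it in gene order, 4619 and 5193 CPM, 2557 without that cell. The rule gene LOC100526782 ranged from 0 to 80 UMIs (median 6) in straight and 0 to 257 (median 2.5) in curly, and at 12144 and 21112 CPM, 10317 in curly without the richest cell, it lay above K33.

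KRT35, a type I hair keratin of the matrix and early cortex, did not follow this pattern. Cells with 4 to 6 genes held 19 straight and 10 curly UMIs of it, or 986 and 564 CPM, against 911 and 2632 CPM in cells with 2 or 3 genes and 4316 and 5277 CPM in gene-rich cells with 4 to 6. Of the deeper endothelial-like cells, 37% in straight and 53% in curly carried a KRT35 UMI. Thinned to 500 UMIs, 4.35% and 6.06% of them did, against 15.4% and 40% of cells with 4 to 6 genes. At that depth it was seen in 23.3% and 45.2% of cells with 2 or 3 genes. Low-gene cells with none carried it in 17.1% and 28.7%, so KRT35 was also common in low-gene cells outside the choice. KRT32, KRT82 and KRT84 each had at most 7 UMIs in the chosen cells of either library, and KRT40 had none.

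Of the keratin-associated protein loci, LOC101103772, in the run with KRTAP6-1, was the most abundant that the rule did not use. It ranged from 0 to 169 UMIs (median 11) in straight and from 0 to 505 (median 30) in curly and was found in 12 of 13 and 9 of 10 cells. Its level was 21642 CPM (19614 to 23822) and 50748 CPM (47484 to 54177), 34741 in curly without the richest cell, against 765 and 1194 CPM in cells with 2 or 3 genes. At 500 UMIs a cell it was seen in 92.3% and 90% of cells with 4 to 6 genes, in 20% and 25.8% of those with 2 or 3, and in 1.86% and 2.27% of endothelial-like cells.

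The rule gene LOC101106046 of the same run held 32.3% of the UMIs of the 6 genes in straight and 33.1% in curly, more than any of the other 5 in either library. LOC100141295 stood at 12041 and 8411 CPM, but it was also at 510 and 771 CPM in low-gene cells with none and at 78.1 and 241 CPM in endothelial-like cells, so that its presence alone marks little. LOC101112404, which RefSeq also lists as KAP3.2, reached 2180 CPM among straight and 3048 CPM among curly cells, 1058 without the richest cell, and low-gene cells with none held 0 and 5 UMIs of it. LOC114116854 stood at 6332 and 2879 CPM. LOC101111893 stood at 5242 and 9709 CPM, but 131 of its 172 curly UMIs came from 1 cell, and without the richest cell its curly level was 3615 CPM, below the straight one. KRTAP6-1 had 36 UMIs in 5 straight cells and 2 UMIs in 1 curly cell. KRTAP1-1 had 1 UMI, KRTAP1-3 had 4 and KRTAP29-1 none in the chosen cells of both libraries.

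**Figure D2:**
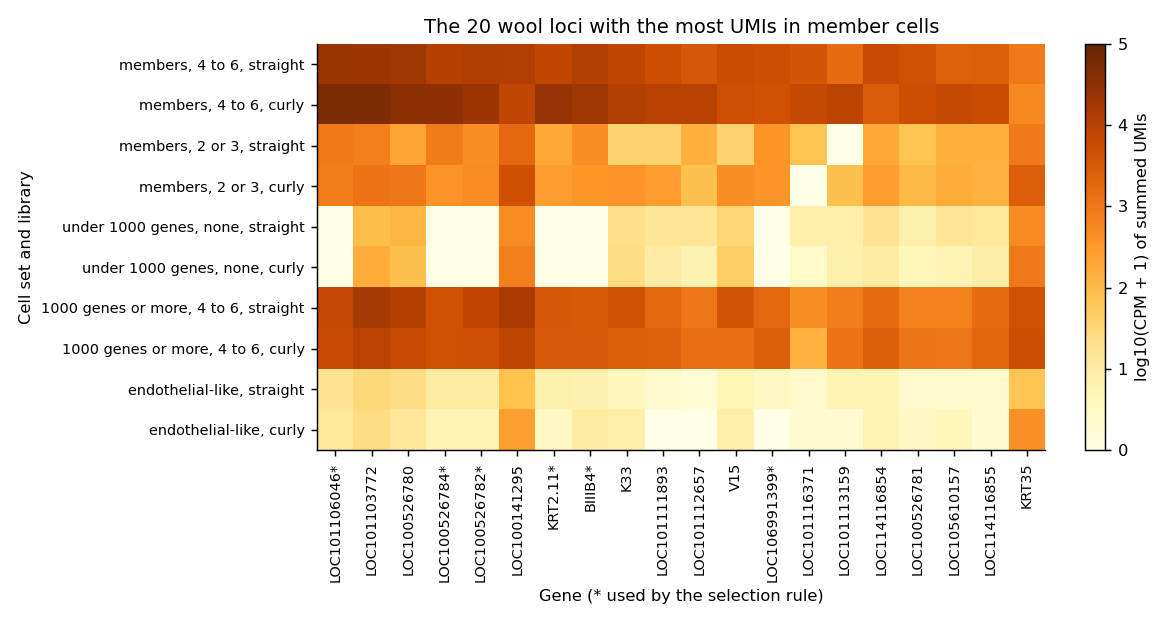
Colour gives log10(CPM + 1) of the summed UMIs for the 20 wool loci with the most UMIs in the 84 cells (columns, an asterisk marks the 6 genes of the rule) in 5 sets of cells per library (rows). Cells with 4 to 6 genes are the darkest rows for most loci, with KRT35 the palest there and darker in gene-rich cells, and endothelial-like cells are pale except at LOC100141295 and KRT35.

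In total 43 of the 53 other wool loci had a UMI in the chosen cells, 23 had at least 20, and 10 had none. For ratios, cells were summed per library and set against low-gene cells with none of the 6 genes, and a gene was called where both libraries differed by at least 2-fold. Over all 84 cells, 248 genes had at least 20 UMIs in each library, of which 34 were higher (13.7%) and 1, KRT10, lower (0.403%). Of the 17 other wool loci that passed this filter, 16 were higher, the exception being KRT35 at log2 ratios of 0.88 in straight and 1.01 in curly, and all 6 rule genes were higher by construction. A gene abundant in the chosen cells passes this filter more easily, so the count describes and does not test.

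The cells with 4 to 6 genes and those with 2 or 3 were also summed apart, keeping genes with at least 20 UMIs over both libraries. In cells with 4 to 6 genes, 59 of 237 genes were higher (24.9%) and 11 lower (4.64%), and 21 of the 22 other wool loci that had enough counts were among the higher ones. Of these calls, 1 higher (LOC114113332) and 2 lower (IFI6 and LOC101113168) rest on the 0.5 UMI added to each sum, since 1 library held no UMI of the gene in these cells. In cells with 2 or 3 genes, 10 of 409 were higher (2.44%) and 1 lower (0.244%). Of those 10, 5 were rule genes, and the others were LOC101103772 and LOC100141295 of the wool loci and FABP4, DDIT4 and LAP3.

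Several non-keratin genes of the hair shaft were higher in the cells with 4 to 6 genes. Of 17 genes in this list, 8 had at least 20 UMIs there and were at least 2-fold higher in both libraries, where 24.9% of all genes with enough counts were. The other 9 did not reach 20 UMIs, and as that minimum was set in these cells the count of 8 is in part fixed by it. For MT4 this rested on 3 curly UMIs, and the interval of its curly log2 ratio of 1.10 ran from -1.41 to 2.46 (1.74 without the richest cell). GPRC5D, an orphan receptor known from hard-keratin-forming cells, ranged from 0 to 31 UMIs in straight and 0 to 116 in curly cells. It stood at 3737 and 9822 CPM, against 33.1 and 14.9 CPM in low-gene cells with none, log2 ratios of 6.81 (6.21 to 7.46) and 9.34 (8.75 to 10.05), the curly level being 5114 CPM and its log2 ratio 8.41 without the richest cell.

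PSORS1C2 stood at 1661 and 1863 CPM against 14.0 and 56.5, and 28 of its 33 curly UMIs came from 1 cell, the curly level being 441 CPM without the richest cell. LRRC15, a leucine-rich repeat membrane protein, stood at 882 and 1750 CPM against 12.04 and 14.3. TGM3, a transglutaminase that cross-links shaft proteins, had 14 UMIs in 6 straight cells and 11 in 3 curly cells, 9 of the 11 in the richest cell, and without that cell it was no longer called. DNASE1L2, a DNase of cornifying keratinocytes, had 5 and 24 UMIs.

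S100A3, a calcium-binding protein of the hair cuticle, fell elsewhere. It had 3 UMIs in 1 straight cell and none in curly cells with 4 to 6 genes, but 60 UMIs in 5 curly cells with 2 or 3, up to 24 in a cell. PRR9 had 119 UMIs in 9 curly cells with 2 or 3 genes, up to 51 in a cell, and 4 UMIs in curly cells with 4 to 6. LY6G6D had 25 UMIs in 5 of those curly cells and none in straight cells with 2 or 3. The curly cells with 2 or 3 genes thus included a few with other shaft transcripts. Of their UMIs outside the wool loci, 0.786% came from the non-keratin shaft list, against 0.162% in straight. Shaft regulators such as HOXC13, FOXN1, LEF1 and MSX1 had at most 11 UMIs each per library in all 84 cells, too few for a comparison.

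Genes of other lineages marked the cells with 2 or 3 genes. For each cell, the cell type list with the most UMIs was noted. The wool loci led in 12 of 13 straight and 10 of 10 curly cells with 4 to 6 genes, dermal genes leading in the remaining straight cell. In cells with 2 or 3 genes the wool loci led in 7 of 30 and 12 of 31, basal keratinocyte genes in 12 and 7, suprabasal genes in 2 and 5, dermal genes in 5 and 2 and inner root sheath genes in 1 and 3. Low-gene cells with none were led by the wool loci in 5.22% and 6.69% and by basal genes in 47.6% and 40.9%. Since the wool list includes the 6 genes of the rule and is longer than the others, its lead in cells chosen for those genes is in part set by the choice.

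**Figure D3:**
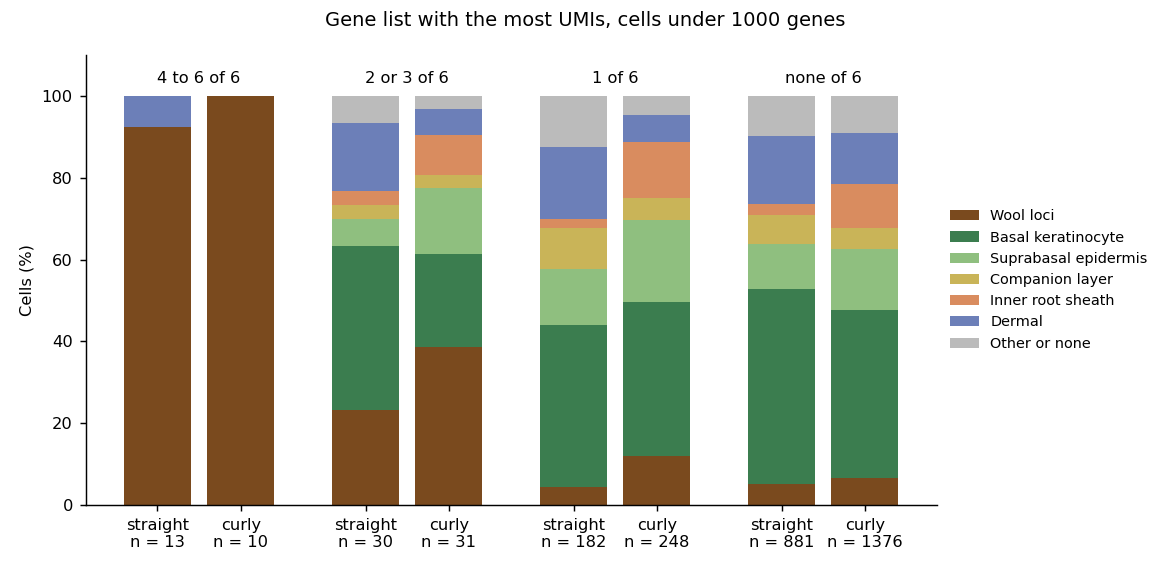
Stacked bars give the percentage of low-gene cells in which each gene list had the most UMIs, by number of the 6 genes and by library, with the number of cells under each bar. The wool loci lead in 92.3% and 100% of cells with 4 to 6 genes, in 23.3% and 38.7% of cells with 2 or 3, and in 5.22% and 6.69% of cells with none.

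Epidermal keratins were low in the cells with 4 to 6 genes. KRT5, the type II keratin of basal keratinocytes, stood at 1505 and 1016 CPM, against 6479 and 6050 CPM in low-gene cells with none, and the log2 ratios were -2.08 (-2.69 to -1.58) and -2.53 (-3.33 to -1.91). LOC101118459, named KRT14 in RefSeq, its basal partner, had log2 ratios of -2.32 and -1.76. KRT10, a suprabasal keratin, had 12 and 8 UMIs and log2 ratios of -3.01 and -3.00. KRT17, of the companion layer and outer root sheath, had log2 ratios of -1.57 and -1.47. Wool UMIs took up 18.5% and 33.5% of the totals, which lowers every other gene's CPM: with CPM taken over the other UMIs, 5 of the 11 genes were still called, namely KRT5, KRT10, LOC101118459, PTMA and IFI6. IFI6 had no UMI in the straight cells with 4 to 6 genes and 79.3 CPM in straight low-gene cells with none, so its straight ratio is set by the 0.5 UMI added.

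Ribosomal protein genes were not called in either direction, 0 of 70 with enough counts. They held 31.8% of the UMIs outside the wool loci in straight cells with 4 to 6 genes and 27.5% in curly, against 27.8% and 30.5% in low-gene cells with none and 39.2% and 44.3% in gene-rich cells with 4 to 6. Genes of the mitochondrial genome and the nuclear RNAs MALAT1 and NEAT1 have no row in the table used here, so RNA quality could not be judged from them.

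Outside the wool loci, redox and metal-handling genes were among the largest ratios. PRDX6, a peroxiredoxin, stood at 1505 and 2823 CPM in cells with 4 to 6 genes against 205 and 129 CPM, and 28 of its 50 curly UMIs were in the richest cell, without which its curly level was 1940 CPM. GLRX, a glutaredoxin, stood at 1817 and 1185 CPM against 71.2 and 72.0, but at 441 CPM in curly without the richest cell, which left 5 of its 21 UMIs. ATOX1, a copper chaperone, stood at 1609 and 677 CPM against 134 and 206. In the list of 13 translation, metal and redox genes, 5 of 8 with at least 20 UMIs in these cells were higher and none lower, where 24.9% of all such genes were higher, and the minimum favours genes that are high there. FAM25A and TUBB2A, a beta tubulin, had log2 ratios of 4.74 and 4.02 (3.37 in curly without the richest cell), and of 3.34 and 3.40.

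**Figure D4:**
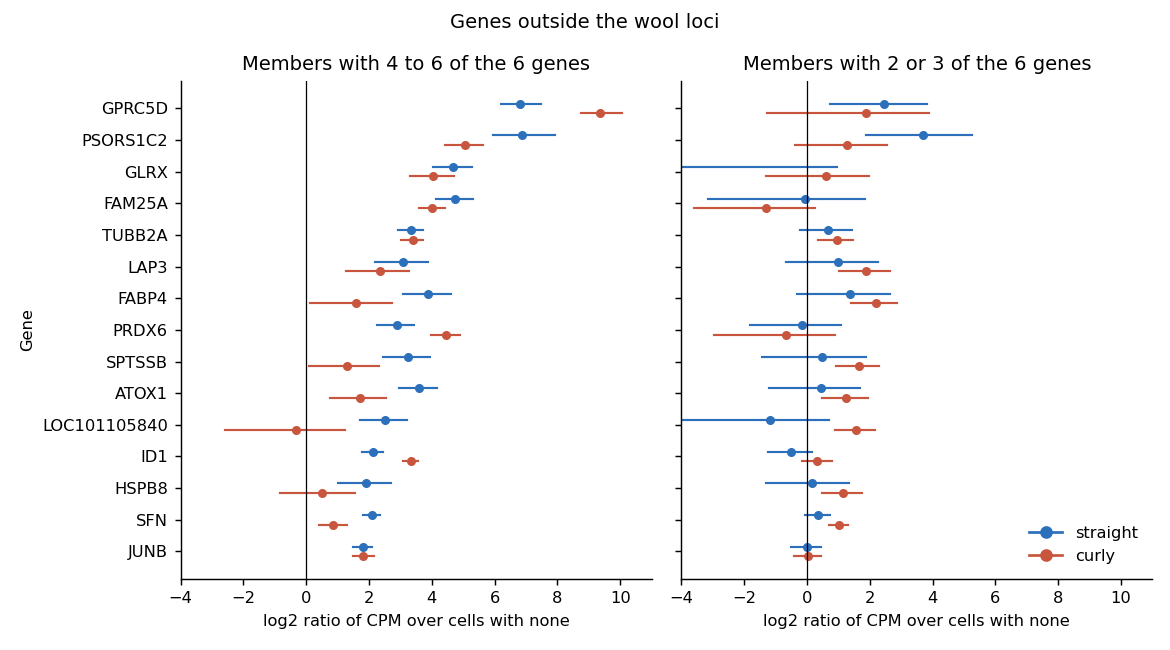
Points give the log2 ratio of CPM over low-gene cells with none of the 6 genes for the 15 genes outside the wool loci that rose most in both libraries over all 84 cells, and lines the exact 95% interval, for cells with 4 to 6 genes (left) and with 2 or 3 (right). No point is drawn where a library had no UMI, and lines end at -4. GPRC5D lies at 6.81 and 9.34 on the left, and on the right its points rest on 5 and 2 UMIs. On the right, JUNB, FAM25A and PRDX6 have intervals that include 0 in both libraries.

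The genes lowest in the 84 cells included dermal matrix genes. COL1A1, of type I collagen, had 3 UMIs in each library over the 84 cells, where low-gene cells with none stood at 1147 and 1211 CPM. COL1A2 had 1 UMI in each, and ELN (elastin), CHI3L1, SPARCL1, SLC2A3 and CAMK2D had none in either library. In low-gene cells with none, SLC2A3 stood at only 64.2 and 55.2 CPM and CAMK2D at 63.2 and 62.0 CPM. The intervals of their log2 ratios included 0 in both libraries, as did those of CHI3L1 and SPARCL1 in curly. Summed dermal genes had 45 UMIs in straight, 35 of them in 1 cell, and 2 in curly cells with 4 to 6 genes. That was 0.234% of UMIs in straight, against 0.776% and 0.533% in low-gene cells with none. Not all dermal values were low. Outside the wool loci, dermal genes held 0.927% of UMIs in straight cells with 2 or 3 genes, against 0.777% in those with none. In curly they held 0.127% against 0.534%. Over the 84 cells, IGFBP3 of this list had log2 ratios of 0.66 in straight and -2.22 in curly. Cells with 4 to 6 genes held 1 UMI of the endothelial list in each library and none of the melanocyte list, and 0 and 2 UMIs of the immune list.

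Gene-rich cells with 4 to 6 of the 6 genes gave the closest comparison for the wool-rich cells. There were 48 in straight and 34 in curly, with medians of 17234.5 and 16401 UMIs. The wool loci held 10.1% and 7.74% of their summed UMIs, against 18.5% and 33.5% (16.9% without the richest cell) in low-gene cells with 4 to 6. Of 789 genes with at least 200 UMIs over both sets and both libraries, 37 were higher in the low-gene cells (4.69%) and 56 lower (7.1%), 21 of the 56 with no UMI in the low-gene cells of a library, with 9 of 24 other wool loci higher and 1, KRT35, lower. Without the richest curly cell the counts were 31 and 43, of which 1 (IFI6, with no straight UMI) and 28 rest on a library with no UMI and the 0.5 UMI added, and 3 of 24 other wool loci were higher, namely LOC101116371, LOC101106296 and LOC100526781.

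KRT35 was lower by log2 ratios of -2.09 and -3.15, and KRT28, an inner root sheath keratin, had no UMI in the low-gene cells of either library. Keratin-associated protein loci held 55.9% of the wool UMIs in straight and 57.1% in curly low-gene cells with 4 to 6 genes, against 45.7% and 51.0% in gene-rich ones. The percentage per cell ran from 30.1% to 90.5% and from 28.6% to 93.5%, with medians of 57.4% and 61.9%, and in gene-rich cells the medians were 50% and 68.5%, so the order of the medians differed between libraries.

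In the list of immediate early and heat shock genes, 5 of 8 tested were higher in the low-gene cells, where 4.69% of all genes were, but mostly through single cells. JUNB stood at 98 UMIs in straight and 79 in curly, with log2 ratios of 2.13 and 2.72 over gene-rich cells (3.35 in curly without the richest cell), FOS at 79 and 30 UMIs, and HSPB1, a small heat shock protein, at 109 and 106. Of the JUNB UMIs, 63 of the 98 straight and 75 of the 79 curly ones came from 1 cell each. In curly, 23 of 30 FOS, 26 of 28 JUN and 11 of 14 IER2 UMIs also came from 1 cell each, and the medians over curly cells were 0.5, 0 and 0 UMIs. In straight, the highest cell held 27 of 79 FOS, 23 of 36 JUN and 16 of 19 IER2 UMIs. ID1, a helix-loop-helix inhibitor, had 63 of 82 straight and 142 of 153 curly UMIs in 1 cell each. HSPB1 was spread wider, in 12 of 13 and 9 of 10 cells.

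Between the wool types, curly cells differed from straight by at least 2-fold in 31 of 258 genes upward (12%) and 17 downward (6.59%). LOC101113168, LOC114117804, LOC101118004 and LOC114117888 had no UMI in straight and 219, 97, 91 and 70 in curly cells. The same loci were higher in the whole curly library, LOC101113168 standing at 63.1 CPM over all straight and 1879 CPM over all curly cells, so this difference was not particular to the chosen cells. IFI6, an interferon-induced gene, had 6 and 87 UMIs, and 73.5 and 4115 CPM over all cells. IGFBP3 and VIM, of the dermal list, were lower in curly, with 93 and 8 UMIs and 117 and 21 UMIs. In straight, 39 of the IGFBP3 and 82 of the VIM UMIs came from 1 cell each, not the same cell. The cell with 82 VIM UMIs also held 30 UMIs of the immune list.

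The direction of the wool loci between wool types rested on 1 cell. Over the 24 wool loci with at least 50 UMIs the log2 ratio, taken as curly against straight, had a median of 0.49, and 17 loci were higher in curly and 7 lower, against a median of 0.12 over all 258 genes. Without the richest curly cell it was -1.10 over the 22 loci that still had 50 UMIs, with 2 higher and 20 lower. Also without that cell, 27 of 250 genes were higher in curly (10.8%) and 21 lower (8.4%). With all cells kept and each weighted equally, the median of the wool loci was -0.33. Wool loci held 8.16% of summed UMIs in straight cells and 11.9% in curly, 5.17% without that cell. No order of the wool types in wool transcripts can be read from these cells.

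**Figure D5:**
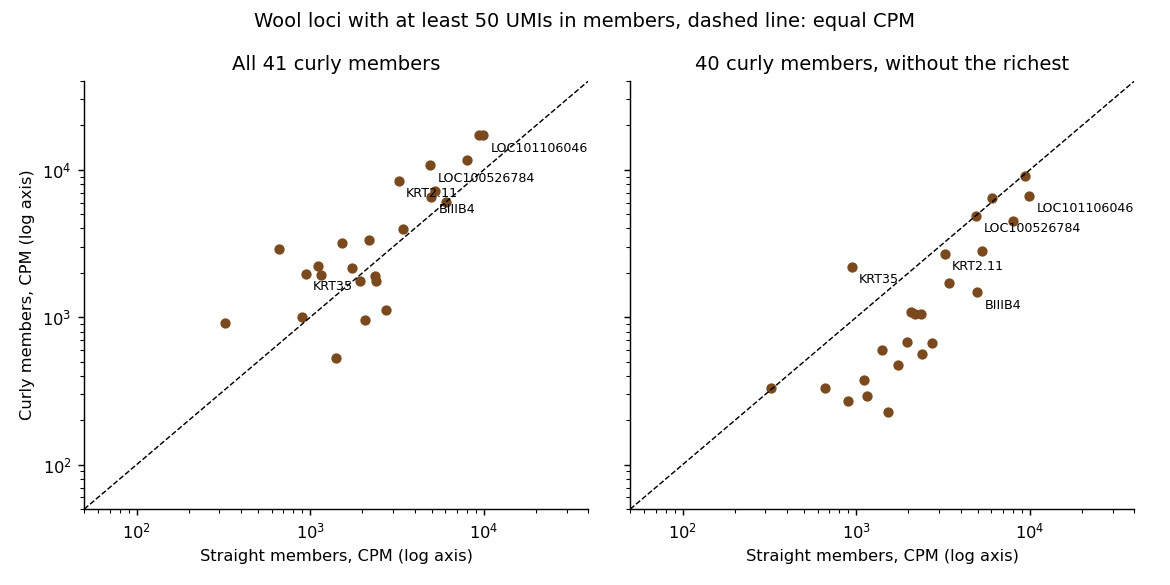
Each point is 1 of 24 wool loci, with CPM in the 43 straight cells on the horizontal and CPM in curly cells on the vertical axis, both log, with all 41 curly cells (left) and without the richest one (right), and the dashed line marks equal CPM. On the left 17 of 24 loci lie above the line, and on the right, where all 24 are drawn, 2 of the 22 that kept 50 UMIs do, KRT35 among them.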

How the data were processed

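Both libraries were single-cell RNA-seq libraries, 1 for each wool type, and nothing says that lambs could be told apart within a pool, so no replicate was available. The submitters' processing notes name Cell Ranger 3.0.2. The authors deposited 1 table of natural log values, ln(1 + UMIs scaled to 10000 per cell), for 18161 genes and 14037 cells. Raw counts had been assumed, and UMIs were therefore recovered from the deposited natural log values by dividing by the value of 1 UMI in each cell. All 28552149 values came out whole within 0.01. The table held 70 barcodes that occur in both libraries, 1 of them in a chosen curly cell.

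Over all cells the median depth was 7373.5 UMIs in the straight and 7495 in the curly library. Sums of UMIs over cells became CPM, whose intervals were exact Poisson ones, and shares came with exact Clopper-Pearson intervals, and ratios, with 0.5 UMI added to each sum, carry the exact interval of the binomial split, all at 95%. Genes needed 20 UMIs in each library over all chosen cells, 20 over both libraries in subsets, 50 between wool types and 200 against gene-rich cells, and a call needed 2-fold. No p-value was computed. Cells were thinned to 500 UMIs with a fixed seed. On Poisson counts simulated for 248 genes of the comparison with low-gene cells, the intervals held the true ratio in 95.2% of genes for straight and 97.2% for curly. The intervals assume such counts, so this checks the computation only and does not cover the spread between cells. Scrublet in scanpy 1.11.5 gave doublet scores, and the other steps used scipy 1.17.1, numpy 2.4.6 and pandas 2.3.3 under Python 3.11.15. Doublets were kept, and removal of the cells with the highest 6% of scores was an alternative.

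The cells and gene lists were chosen with earlier results of these data known, and the neighbours of the named wool genes and the division at 4 of the 6 genes were added after the table had been seen. Named genes were the 6 rule genes, wool genes with at least 20 UMIs, the 15 largest and 10 smallest ratios over low-gene cells outside the wool loci, the 10 largest and 10 smallest between wool types, and members of the lists. Gene order was read from RefSeq of ARS-UI_Ramb_v3.0, another assembly than the one used for the table, and no coordinates or sequences are given.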

Additional observations from a re-analysis of the deposited data

Results flagged for a closer look

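IGFBP3, an insulin-like growth factor binding protein that dermal papilla cells express, lay in opposite directions in the libraries when the 84 cells were compared with low-gene cells that had none of the 6 genes. Its log2 ratio was 0.66 in straight and -2.22 in curly cells. The difference between the libraries was not tested, since each wool type was 1 library. The straight cells held 93 IGFBP3 UMIs in 14 cells, 39 of them in 1 cell, and the curly cells held 8 UMIs in 3 cells.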

How the results depend on the processing

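No paired analysis was possible because each wool type was 1 library. Of 64 alternative values, 29 kept within the range set for their result, 33 moved and 2 changed sign. That range was the counting interval for shares, a fixed fold limit for gene counts, and the standard deviation over loci for the wool median. Among those that kept, the straight wool share without the richest curly cell could not change. The cause of a shift was not tested unless it follows from fewer cells or genes. The share of cells (0.666% straight, 0.541% curly) was 0.899% in straight under a higher gene limit, 3.49% and 3.81% with at least 1 of the 6 genes, 0.263% and 0.198% with at least 3, and 0.248% and 0.171% with at least 2 UMIs of each gene. The wool loci's share of UMIs (8.16% and 11.9%) was 8.60% and 4.65% under 750 genes, 4.96% and 13.3% under the higher limit, 16.9% and 25.01% with at least 3 genes, 6.52% and 5.72% as a mean over cells, 12.8% in curly after removal of the highest doublet scores and 5.17% without the richest curly cell. Against low-gene cells, 34 genes were higher and 1 lower, which became 17 and 0 under 750 genes and 93 and 8 with a minimum of 5 UMIs, while the lower count was 0 under the higher limit, 4 with at least 3 genes and 0 with per-cell means. For cells with 4 to 6 genes the 11 lower genes became 6 without the richest curly cell, 5 when scaled without wool UMIs and 5 with per-cell means. Scaled without wool UMIs, 59 of the 59 higher genes were kept, and 51 without the richest cell. Between wool types, 31 genes were higher and 17 lower in curly, which became 9 and 8 with at least 3 genes and 61 and 64 with a minimum of 20 UMIs, and the lower count was 8 under TMM scaling, where 36 were higher. The median over all genes was 0.12 on the log2 scale, 0.36 under TMM and 0.18 when scaled without wool UMIs. The median of the wool loci, 0.49, reversed to -0.33 with per-cell means and to -1.10 without the richest curly cell. At 1000 UMIs a cell, 94.4% of straight cells carried another wool locus, against 74.4% at 500. The 2 depths cover different cells, since 25 straight cells had too few UMIs for 1000. Of the 18 left, 10 had 4 to 6 genes, against 13 of 43 at 500. The settings without the richest cell, and those on cells with 4 to 6 genes, were added after the data were seen.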
